A study of Mus musculus with 18 samples.

Results

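The genes described here are the immunoglobulin variable (V) genes that were detected in RNA-seq libraries of mouse monocytes and of the cells they gave rise to in culture. The members are the heavy chain V genes (*Ighv*) and kappa light chain V genes (*Igkv*) whose mean level over the 18 libraries was above 0.5 RPKM (mapped reads scaled to the length of the gene in kilobases and to the depth of the library). Of the 223 *Ighv* and *Igkv* genes among the 20298 genes listed, 150 met this limit, 77 of 120 *Ighv* and 73 of 103 *Igkv* genes. The members were thus selected on their measured level, so their levels and the change over time within a genotype are given as a description without a test. Genotypes were compared in fits over all genes. Just inside the limit were *Ighv2-4* (mean 0.520 RPKM), *Igkv5-37* (0.531 RPKM) and *Ighv1-61* (0.537 RPKM), and just outside were *Ighv3-4* (0.495 RPKM), *Ighv2-5* (0.492 RPKM) and *Ighv13-2* (0.475 RPKM).

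The libraries came from WT mice and from DKI mice, all on the C57BL/6 strain. The DKI mice carry knock-in mutations in *Stat5a* and *Stat5b* that prevent STAT5 tetramers but leave STAT5 dimers. The alleles are knock-ins of the animal and not of monocytes alone. Each genotype was sampled as untreated Ly6C+ CCR2+ monocytes (day 0) and on days 3 and 6 of culture in GM-CSF (20 ng/ml), a cytokine that drives monocytes toward dendritic cells and macrophages, with 3 libraries in each of the 6 groups. The study's methods give bone marrow as the source and an enrichment kit as the way the monocytes were isolated, whereas the labels give liver as the tissue. The hepatocyte genes *Alb*, *Ttr* and *Serpina1a* were listed at 0 in all 18 libraries and *Apoa1* did not exceed 0.0471 RPKM. The monocyte genes *Ly6c2* (953 to 1760 RPKM) and *Ccr2* (172 to 584 RPKM) were high in all 6 day 0 libraries. The labels do not tie the libraries to single animals, so that the errors below measure the spread between libraries.

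An antibody gene is assembled in B lineage cells, where one of many V genes is joined to D and J segments (heavy chain) or to a J segment (light chain), and the joined exon is spliced to a constant region. A B cell therefore transcribes mainly the one heavy and the one light V gene that it rearranged, and a plasma cell, the antibody-secreting end stage that resides in bone marrow, does so at a very high rate. The names of the V genes in a sample are therefore a rough record of which B lineage clones contributed RNA to it. In bulk RNA, a smaller number of cells of a type and less RNA per cell cannot be told apart.

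The *Ighv* members lie on chromosome 12 of mm10 between 113588267 and 116000321, all 77 on the minus strand. The *Igkv* members lie on chromosome 6 between 67555636 and 70704177, with 29 on the plus and 44 on the minus strand. All 150 members were found in RefSeq. The members belong to 11 *Ighv* and 17 *Igkv* families, of which *Ighv1* (43 members) and *Igkv4* (17 members) are the largest. V genes are close copies of one another. The coding sequence of a member was 95% identical (median) to its nearest V gene, and 10 members were 98% or more identical to another one, so that the level of a single V gene is less certain than the sum. The germline 3′ ends of 7 V genes are shown because their values are described below. These are *Igkv12-89*, the member with the highest mean, *Igkv10-96* and its nearest relative *Igkv10-94* (95.4% identical), *Igkv19-93*, which led several of the cultures, *Ighv1-26*, the heavy chain member with the highest mean, and the pair called between genotypes on day 3, *Igkv6-15* and *Ighv1-81*. Each line gives the last 120 coding bases (GENCODE models on mm10), with the codon of the second conserved cysteine in capitals. This codon marks the start of the junction with the D or J segment, and rearrangement can trim the bases that follow it.
Igkv12-89 (chr6:68834846-68834965, minus strand): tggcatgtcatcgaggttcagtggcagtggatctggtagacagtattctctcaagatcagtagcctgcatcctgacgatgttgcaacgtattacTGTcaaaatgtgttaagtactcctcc
Igkv10-96 (chr6:68631963-68632082, minus strand): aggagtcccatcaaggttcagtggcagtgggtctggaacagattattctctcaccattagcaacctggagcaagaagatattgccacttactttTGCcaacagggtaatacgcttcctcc
Igkv10-94 (chr6:68704508-68704627, minus strand): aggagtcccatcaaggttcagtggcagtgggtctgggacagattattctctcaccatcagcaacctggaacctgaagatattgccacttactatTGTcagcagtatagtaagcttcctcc
Igkv19-93 (chr6:68736297-68736416, minus strand): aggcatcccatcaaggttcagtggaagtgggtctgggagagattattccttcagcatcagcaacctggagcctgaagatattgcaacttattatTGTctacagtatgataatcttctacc
Igkv6-15 (chr6:70406469-70406588, minus strand): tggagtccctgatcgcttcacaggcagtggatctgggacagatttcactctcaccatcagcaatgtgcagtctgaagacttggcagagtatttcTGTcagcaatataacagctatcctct
Ighv1-26 (chr12:114788372-114788491, minus strand): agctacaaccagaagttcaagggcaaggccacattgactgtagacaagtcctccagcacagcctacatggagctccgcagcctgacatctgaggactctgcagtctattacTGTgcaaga
Ighv1-81 (chr12:115920279-115920398, minus strand): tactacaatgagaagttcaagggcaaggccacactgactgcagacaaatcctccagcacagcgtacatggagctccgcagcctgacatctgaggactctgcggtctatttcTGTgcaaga

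Among these libraries, the cultures labelled DKI day 3 replicate 1 and DKI day 6 replicate 1 stood apart in single genes from lists of other cell types. Their *Cd4* level was 53.2 and 59.4 RPKM, against at most 1.5 RPKM in the other 16 libraries, and *Bst2* was at 1231 and 954 RPKM, against at most 241 RPKM. Other genes of the same lists were low in both cultures, with *Cd3e* at 0 and 0.0232 RPKM and *Siglech* at 0.0106 and 0.0139 RPKM. These levels therefore do not name a cell type. Depth was recovered from the V genes themselves, since the RPKM of a single-exon V gene is a whole multiple of what 1 read is worth, and came to between 29.5 and 43.2 M reads per library. At the lowest depth 1 read on 300 bases is worth 0.113 RPKM and 3 reads are worth 0.338 RPKM, a floor that covers counting error only.

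On day 0, V gene RNA was abundant in the monocyte libraries of both genotypes. The summed level of the 150 members was 532.9, 2191 and 759.8 RPKM in the WT libraries (replicates 1 to 3), with a mean of 1161 ± 899 RPKM (SD, n = 3). In DKI it was 1594, 5336 and 1168 RPKM, with a mean of 2699 ± 2293 RPKM (SD, n = 3). DKI replicate 2 was the highest of all libraries, WT replicate 1 was the lowest of day 0, and the 2 groups overlapped. These sums rest on 7388 to 31053 reads per library in WT and on 11428 to 75997 in DKI, and made up between 0.140% and 1.31% of all RPKM listed. *Ighv* and *Igkv* members contributed in nearly fixed proportion, with an *Ighv* to *Igkv* ratio of 0.798, 0.804 and 0.844 in WT and of 0.669, 0.692 and 0.723 in DKI libraries. The ratio was lower in each DKI library than in each WT library, a difference noticed in these values and not tested.

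After 3 days with GM-CSF, the summed level was 14.52, 23.36 and 10.70 RPKM in WT and 134.4, 47.52 and 33.00 RPKM in DKI. On day 6, it was 6.296, 12.45 and 12.29 RPKM in WT and 60.97, 25.90 and 2.887 RPKM in DKI. Every day 0 library thus lay above every culture, and the mean was 71.7-fold higher on day 0 than on day 3 in WT and 37.7-fold higher in DKI. The mean of day 3 was 1.57-fold that of day 6 in WT and 2.39-fold in DKI. Within the same replicate number these ratios were 2.31, 1.88 and 0.871 in WT and 2.20, 1.83 and 11.4 in DKI, so that the sum was lower on day 6 in all 3 DKI pairs and in 2 of 3 WT pairs. Over all fitted genes, the replicate numbers were not found to pair day 0 with day 3 libraries. Within the same replicate number, the day 0 sum exceeded the day 3 sum 36.7-, 93.8- and 71.0-fold in WT and 11.9-, 112- and 35.4-fold in DKI. The smallest ratio was that of DKI replicate 1, whose day 3 library is one of the pair set apart above. The single genes that set that pair apart were high in this library too, and their part in the ratio was not tested.

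**Figure D1:**
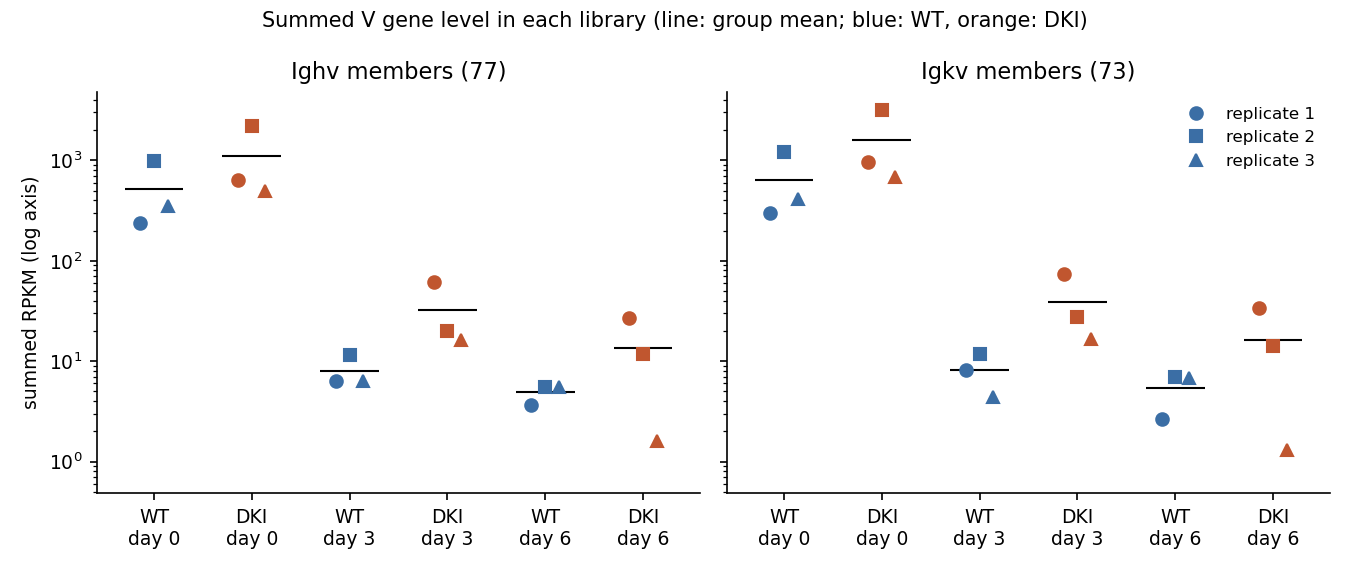
The summed RPKM of the 77 *Ighv* members (left) and the 73 *Igkv* members (right) is plotted on a log axis for each library of the 6 groups, with 1 symbol per replicate number and a line at the group mean. The 6 day 0 libraries lie above all 12 cultures, and on day 3 the 3 DKI libraries lie above the 3 WT libraries.

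The single members followed the sum. Of the 150 members, 148 had their highest value in a day 0 library, and 80 were higher in every day 0 library than in every culture. The exceptions were *Ighv9-1* and *Ighv1-43*, which peaked at 7.78 and 4.50 RPKM in DKI day 3 replicate 1. In the WT cultures of day 3, between 39 and 41 members had a read at all, whereas the DKI cultures of the same day had reads on 71 to 90 members. On day 6, the range was 26 to 44 members in WT and 15 to 60 in DKI. Between 130 and 150 members had a read in each day 0 library, and 125 had one in all 6. No member had a read in all 18 libraries, and 6 members were at 0 in all 12 cultures.

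**Figure D2:**
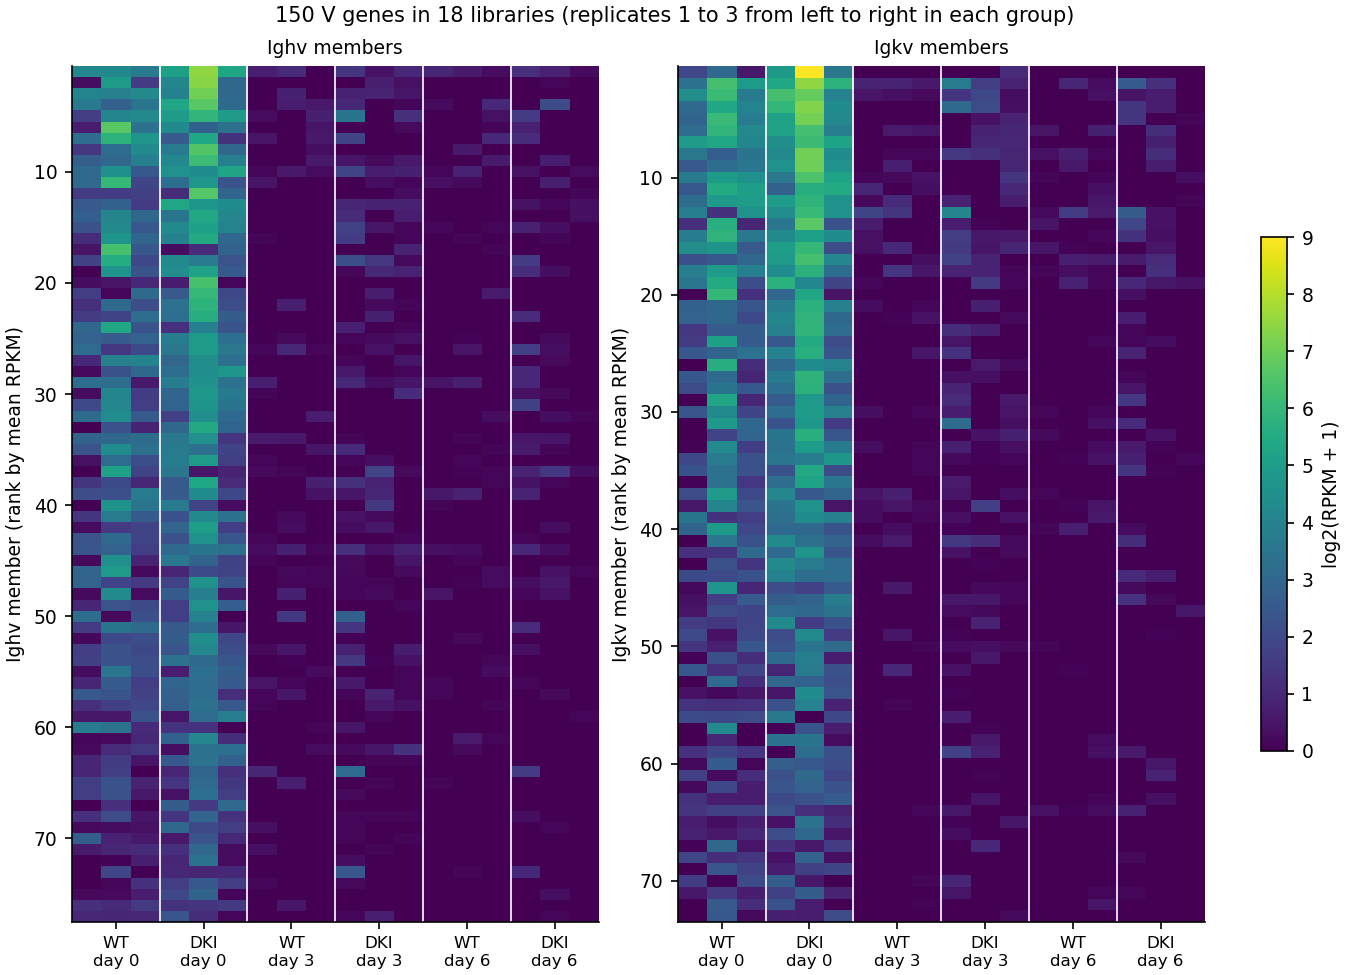
Each row is a V gene, ranked by its mean RPKM within *Ighv* (left) and *Igkv* (right), and each column is a library, with log2(RPKM + 1) as colour. The 6 day 0 columns are filled for most members, DKI day 0 replicate 2 is the brightest, and the cultures show scattered genes that are brightest in replicate 1 of DKI on days 3 and 6.

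The 12 members with the highest means all peaked in DKI day 0 replicate 2, as did 96 of the 150 members. *Igkv12-89* (Entrez gene 384411, chr6:68834846-68835307) had the highest mean of all, 33.5 RPKM, almost wholly through 1 library. It stood at 2.75, 7.48 and 0.545 RPKM in WT on day 0 and at 29.2, 551.9 and 10.7 RPKM in DKI. In the cultures it was at 0 except for 1.14 RPKM in DKI day 3 replicate 3. In DKI day 0 replicate 2 it held 8051 of the 75997 member reads, or 10.6% (95% exact binomial interval 10.4 to 10.8%). This interval and those below cover counting error only, since PCR copies of a molecule are not independent reads. *Igkv10-96* (Entrez gene 692165, chr6:68631965-68632430) was more evenly spread, at 9.38, 79.6 and 29.0 RPKM in WT and 41.6, 181 and 54.9 RPKM in DKI on day 0. It kept reads in all 6 libraries of day 3, where WT had 0.822, 0.847 and 0.541 RPKM and DKI had 11.9, 2.14 and 0.838 RPKM.

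*Ighv1-26* (Entrez gene 629884, chr12:114788372-114788665) led the heavy chain members, at 17.1, 17.3 and 11.9 RPKM in WT and at 33.4, 181 and 38.5 RPKM in DKI on day 0, without overlap between genotypes. It was the leading *Ighv* gene of WT day 0 replicate 1 and of DKI day 0 replicates 2 and 3, while *Ighv6-3* (24.9 RPKM) led in WT replicate 3 and *Ighv5-16* (38.6 RPKM) in DKI replicate 1. *Ighv10-1*, by contrast, stood at 103 RPKM in WT day 0 replicate 2 and at 0.600 to 18.3 RPKM in the other 5 libraries of day 0. *Igkv1-110*, *Igkv12-46*, *Igkv5-43*, *Ighv5-4*, *Igkv8-30*, *Igkv15-103*, *Ighv3-6*, *Igkv6-15* and *Igkv5-39* complete the 12 members with the highest means, and in all of them but *Igkv8-30*, *Igkv1-110* and *Igkv15-103* the DKI replicate 2 value was at least 129 RPKM. In those 3 it was 77.5, 116 and 71.5 RPKM.

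On day 0, the sum was spread over many V genes. The leading gene held 5.78, 4.72 and 4.10% of the sum in WT libraries and 5.05, 10.3 and 4.70% in DKI libraries. It was *Igkv15-103*, *Ighv10-1* and *Igkv5-48* in WT and *Igkv1-110*, *Igkv12-89* and *Igkv10-96* in DKI, a different gene in each library. Between 19 and 26 V genes were needed to reach 50% of the sum, and the effective number of V genes (the inverse of the summed squared shares) was 53.7 to 60.6 in WT and 42.2 to 66.4 in DKI. The usage of single genes was shared only in part between libraries. Spearman's correlation of the 150 members between 2 libraries of day 0 had a median of 0.483 over the 15 pairs of libraries (range 0.257 to 0.567), and 2 libraries had between 1 and 5 of their top 10 genes in common. The 3 same-numbered pairs of WT and DKI gave 0.348 to 0.504, within the range of the other pairs. These values are given without a test, since all libraries share the germline gene set and the mapping of its copies.

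In the cultures, fewer V genes held the sum, at far lower read numbers. The leading gene held 11 ± 6.59% of the sum in WT and 7.86 ± 3.94% in DKI on day 3 (SD, n = 3), and 13.1 ± 4.22% in WT and 12.7 ± 3.89% in DKI on day 6. *Igkv19-93* was the leading light chain gene in 5 of the 12 cultures, with 2.70 and 1.53 RPKM in WT day 3 replicates 1 and 2, 16.5 RPKM in DKI day 3 replicate 1, 1.95 RPKM in WT day 6 replicate 2 and 5.37 RPKM in DKI day 6 replicate 1. In DKI day 3 replicate 1 it had 225 of 1734 member reads, or 13% (95% exact interval 11.4 to 14.6%). The other cultures had other leading light chain genes, namely *Igkv10-96* (0.541 RPKM, WT day 3 replicate 3), *Igkv12-46* (3.15 RPKM, DKI day 3 replicate 2), *Igkv14-111* (1.55 RPKM, DKI day 3 replicate 3), *Igkv12-44* (0.412 RPKM, WT day 6 replicate 1), *Igkv8-30* (0.724 RPKM, WT day 6 replicate 3) and *Igkv6-23* (1.40 RPKM, DKI day 6 replicate 2). The leading heavy chain genes of the cultures differed as well. On day 3 they were *Ighv9-1* (0.964 RPKM), *Ighv3-1* (1.72 RPKM) and *Ighv2-9* (0.745 RPKM) in WT and *Ighv1-9* (10.2 RPKM), *Ighv1-58* (2.62 RPKM) and *Ighv1-85* (1.42 RPKM) in DKI. On day 6 they were *Ighv1-26* (0.972 RPKM), *Ighv1-64* (0.754 RPKM) and *Ighv5-16* (1.01 RPKM) in WT and *Ighv1-82* (2.26 RPKM), *Ighv5-16* (3.31 RPKM) and *Ighv1-81* (0.295 RPKM) in DKI. In DKI day 6 replicate 3, the leading gene *Igkv8-21* had 6 of 33 member reads, or 18.2% (6.98 to 35.5%), so that shares in the lowest libraries are known only roughly.

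Day 3 and day 6 cultures with the same replicate number resembled each other in V genes. In DKI, the correlation was 0.419, 0.338 and 0.227 for replicates 1 to 3, and −0.0254 to 0.197 for the 6 pairs with different numbers. In WT it was 0.269 to 0.524 for the same number and 0.103 to 0.371 for different numbers, so that these ranges overlap. The 2 cultures of DKI replicate 1 had 5 of their top 10 V genes in common. *Igkv19-93* was at 16.5 and 5.37 RPKM in them, *Igkv10-96* at 11.9 and 5.02 RPKM, *Ighv1-9* at 10.2 and 2.04 RPKM and *Ighv9-1* at 7.78 and 1.92 RPKM. *Ighv9-1* was at 0 in the other DKI cultures.

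**Figure D3:**
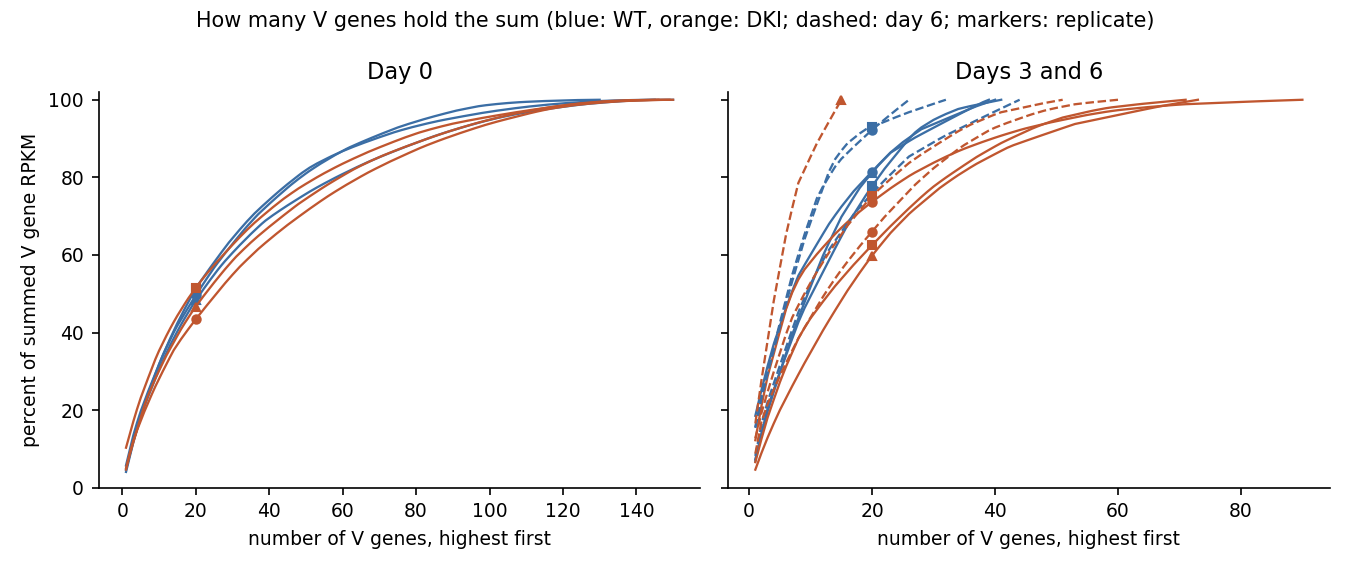
The cumulative percent of summed V gene RPKM is plotted against the number of V genes, highest first, for the day 0 libraries (left) and the cultures (right), with 1 line per library and a symbol at the 20th gene or at the last gene with a read. On day 0 the 6 lines run close together, and in the cultures they end after 15 to 90 genes.

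The first genotype comparison asks whether DKI monocytes differ from WT monocytes in V gene level before culture. The DKI sum was higher in each same-numbered pair of day 0, by 2.99-, 2.44- and 1.54-fold, and the ratio of group means was 2.32 (1.22 on the log2 scale). This ratio rests largely on replicate 2 of both genotypes, being 0.25 on the log2 scale without that of DKI and 2.06 without that of WT. The mean log2 sum differed by 1.16, about the size of the spread between libraries (SD 1.06 in WT and 1.16 in DKI, n = 3 each). This spread leaves out the pairing by replicate number, and the difference within pairs is given by the 3 ratios above. For single genes, limma on log2(RPKM + 1) over 11089 genes called 0 genes between genotypes at an adjusted p under 0.05 (Benjamini-Hochberg) and a fold change above 1.5, so the members called were 0 of 150 and the share called higher over all genes was 0%. At an unadjusted p under 0.05, there were 50 genes, of which 37 were members, 36 of them higher in DKI. With the replicate number as a block, the calls stayed at 0 and the genes at an unadjusted p under 0.05 numbered 472, of which 64 were members. The day 0 values entered the choice of members, and only 128 of the 150 exceed 0.5 RPKM in the mean of the WT libraries. These member counts at an unadjusted p are therefore a description.

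The members' log2 fold changes on day 0 are given as a description, since the values of day 0 entered the choice of members. They were positive in 129 of 150 members, with a median of 1.14, where the median of all 11089 genes was −0.0019. Without DKI replicate 2 they were positive in 110 members, with a median of 0.53. Of the 128 members whose mean over the 9 WT libraries alone is above 0.5 RPKM, 107 were positive, with a median of 1.07. In 33 members, every DKI value was higher than every WT value, against 0.811% of all genes fitted, and in 0 members was every DKI value lower, against 0.451% of all genes. Without DKI replicate 1, 2 or 3 the count of 33 became 46, 35 or 61, beside 3.48%, 2.75% and 2.62% of all genes fitted, an alternative added after the data were seen. These shares are larger in part because 2 libraries against 3 overlap less often by construction. Of the 128 members just named, 24 had such values, and of all 223 V genes listed, 38 had. The members of a library share its cells and are not independent, so that these counts describe 6 libraries. *Ighv1-26* had a log2 fold change of 1.95 (SE 0.65), *Igkv12-89* of 3.99 (SE 1.49) and *Igkv10-96* of 1.37 (SE 0.88), each with an adjusted p of 1.0 from limma. With the block, their SEs were 0.46, 0.66 and 0.23 and their adjusted p-values from limma 0.89, 0.64 and 0.64.

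**Figure D4:**
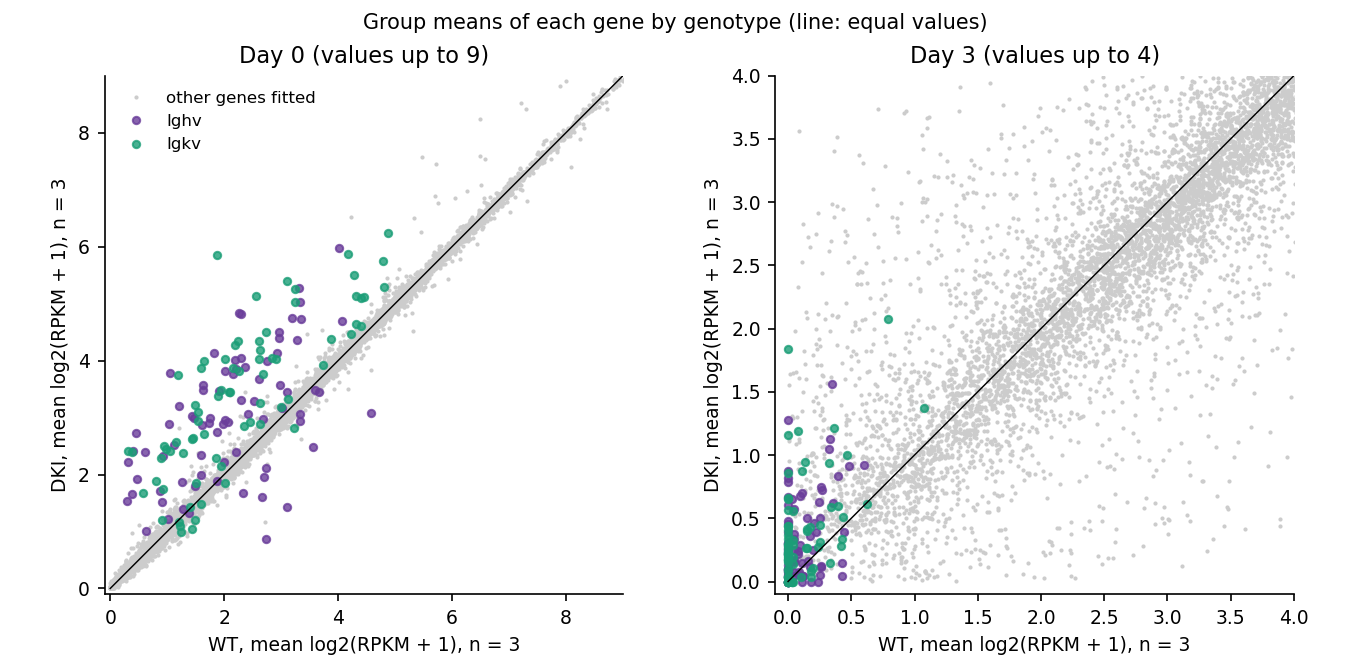
The mean log2(RPKM + 1) of each gene in DKI is plotted against that in WT (n = 3 each) for day 0 (left) and day 3 (right), with *Ighv* and *Igkv* members in colour, other genes in grey and a line at equal values. On day 0, 129 of the 150 members lie above the line, and on day 3 most members lie near 0 in both genotypes with 112 of 137 above the line.

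Usage within each locus was compared as shares, so that the sum no longer enters. The mean share of the locus sum was higher in DKI for 82 and lower for 68 members. The *Ighv1* family held 50.3 to 52.9% of the *Ighv* sum in WT and 45.5 to 69.8% in DKI libraries, and *Igkv4* held 12.4 to 17.7% and 7.99 to 18% of the *Igkv* sum. Of the 28 families, 3 had a lower share in each DKI library of day 0 (*Ighv4*, *Ighv6* and *Igkv13*) and 1 a higher share (*Igkv9*). *Ighv4* was at 0.330 to 5.17% of the *Ighv* sum in WT and 0 to 0.233% in DKI, *Igkv13* at 1.35 to 3.15% and 0.811 to 1.12% of the *Igkv* sum, and *Igkv9* at 0.549 to 0.980% and 1.20 to 1.69%. *Ighv6* was at 6.75 to 8.53% of the *Ighv* sum in WT and 1.13 to 2.79% in DKI. Its higher member, *Ighv6-3*, was at 8.36, 55.2 and 24.9 RPKM in WT and at 4.99, 40.5 and 1.47 RPKM in DKI, and these values overlap. With 3 libraries on each side, some of 28 families can separate fully when genotype has no effect, so nothing is read from their count. These families were picked after their values were seen, and their shares were not tested.

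On day 3, the comparison asks whether the genotypes differ in the V gene RNA that remains in culture. The DKI sum was higher in each same-numbered pair, by 9.26-, 2.03- and 3.08-fold, and the groups did not overlap. The ratio of means was 4.42, or 2.14 on the log2 scale, and 1.31 without DKI replicate 1. It was up to 2.51 without another library. DKI replicate 1 of day 3 is one of the cultures set apart above. The neutrophil and precursor genes also had positive log2 fold changes in DKI on this day (median 1.66, 0.96 to 2.02). The summed level of that list overlapped between genotypes, at 169 to 2600 RPKM in WT and 1160 to 2360 RPKM in DKI. The 3 stroma and bone genes fitted had a median of 0.76, with 0 genes called in either list. Their part in the V gene difference was not tested. Of the members, 13 had no read in any library of day 3, which left 137 in the fit, and 2 of these were called higher in DKI. This is 1.46% of the members fitted, below the 2.57% of the 11075 genes fitted, so the pair is described below as single genes. Both were still called with the replicate block. No member was called without any 1 of the 3 WT libraries, and 1 was called without DKI replicate 2. Without DKI replicate 1 there were 4, beside 307 of 11060 genes called higher, and without DKI replicate 3 there were 5, beside 167 of 11070. In 11 members every DKI value was higher than every WT value, a share below the 12.9% of all genes fitted. The members' median log2 fold change was 0.21, on a scale that understates the change of genes near 0, and was positive in 112 of 137 members, where the median of all genes was −0.10.

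*Ighv1-81* (Entrez gene 668591, chr12:115920279-115920572) was at 0 RPKM in the 3 WT libraries of day 3 and at 0.951, 0.778 and 0.764 RPKM in DKI, from 11, 9 and 7 reads. Its DKI mean of 0.831 RPKM was at least 2.84-fold higher than the WT floor of 3 reads per library (0.293 RPKM), and limma gave an adjusted p of 0.0151 (0.0455 with the block). *Igkv6-15* (Entrez gene 108022, chr6:70406469-70406992) had 0, 1 and 1 reads in WT (0, 0.0766 and 0.0896 RPKM) and 23, 18 and 10 reads in DKI (1.69, 1.32 and 0.925 RPKM). The ratio of reads, scaled for depth, was 24.4 (95% exact interval 6.41 to 207, counting error only), with an adjusted p of 0.0180 from limma (0.0485 with the block). Both were also higher in DKI on day 0, where *Ighv1-81* was at 4.69, 5.87 and 1.99 RPKM in WT and at 38.4, 25.9 and 19.9 RPKM in DKI. *Igkv6-15* was at 11, 5.38 and 10 RPKM in WT and at 18.8, 133 and 19.9 RPKM in DKI on that day. Neither day 0 difference was called. Leaving out any 1 of the WT libraries of day 3 took both genes past the limit, to adjusted p-values of 0.0505 to 0.0741 from limma, and leaving out DKI replicate 2 did so for *Igkv6-15* (0.0527). In the fit of all 18 libraries, *Igkv6-15* was not called (adjusted p = 0.211 from limma).

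On day 6 no direction held across the 3 pairs. The DKI sum was 9.68- and 2.08-fold that of WT in replicates 1 and 2 and 0.235-fold in replicate 3, and the groups overlapped. The ratio of means was 1.53 on the log2 scale, 0.48 without DKI replicate 1 and up to 2.07 without another library. Of the 113 members with a read on that day, limma called 0, against 2.31% of 11054 genes called higher, and 1 member (0.885%) had an unadjusted p under 0.05, against 26.7% of all genes. In 2 members every DKI value was higher than every WT value, against 10.2% of all genes fitted. DKI day 6 replicate 3, the library with the lowest sum, had reads on 15 members and 33 member reads in all.

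A last pair of tests asks whether the difference in level between day 0 and culture depends on genotype. Limma called 3 members with a more negative change in DKI for day 3 and 4 for day 6, against 1.66% and 1.98% of the 11098 genes fitted. These are 2% and 2.67% of the members, near the shares over all genes in this fit, and are given as a description. Of the 5 genes called, *Ighv1-36*, *Ighv1-4* and *Igkv6-13* had means of 0.112, 0.378 and 0.306 RPKM over the 9 WT libraries, so that they met the limit of 0.5 RPKM only through DKI. With the replicate block the counts were 4 and 3, beside 247 and 255 of 11098 genes called lower. Without the block, the members called for day 3 were *Ighv1-36*, *Igkv6-32* and *Ighv1-4*, with a DKI change minus WT change of −1.99 (SE 0.39, adjusted p = 0.0233 from limma), −1.35 (SE 0.27, 0.0266) and −1.78 (SE 0.40, 0.0414) on the log2 scale. For day 6 they were *Ighv1-81*, *Ighv1-36*, *Ighv1-4* and *Igkv6-13*, with differences of −2.22, −1.87, −1.87 and −1.32. These calls depended on single libraries. Without WT day 3 replicate 1 there were 0 members called for day 3, and without WT day 6 replicate 3 there were 0 for day 6. The most were called without WT day 0 replicate 2 or without DKI day 0 replicate 3, with 6 and 7 members in either case. Of all 11098 genes, 102 and 106 were called lower without the first of these libraries and 115 and 117 without the second. In the cultures compared, these 5 genes did not exceed 0.340 RPKM, so that the difference mostly repeats that of day 0, which was not called. For *Igkv6-32* the day 0 log2 fold change was 1.35 (adjusted p = 1.0 from limma). *Ighv1-36* was at 0.162, 0.241 and 0.313 RPKM in WT and at 6.91, 3.00 and 2.19 RPKM in DKI on day 0, and *Ighv1-4* at 0.971, 2.01 and 0.418 RPKM and at 4.55, 9.77 and 5.87 RPKM. *Igkv6-32* was at 3.02, 3.07 and 3.81 RPKM in WT and at 14.4, 8.28 and 8.19 RPKM in DKI, and at 0 in all 6 libraries of day 3. *Igkv6-13*, the call that the block removed (adjusted p = 0.0694 from limma), was at 1.47, 0.596 and 0.602 RPKM in WT and 3.03, 3.70 and 5.12 RPKM in DKI on day 0. The day 0 groups did not overlap in any of these genes.

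Of the constant regions, to which rearranged V genes are spliced, *Igkc* followed the V genes most closely. *Igkc*, the kappa constant region, was at 368, 1493 and 546 RPKM in WT and at 1166, 3703 and 799 RPKM in DKI on day 0, in the same order as the V gene sum. The ratio of the *Igkv* sum to *Igkc* was 0.755 to 0.852 in the 6 libraries of day 0. *Jchain*, which links the chains of secreted IgM and IgA and marks plasma cells, kept this order too, at 31.3, 100 and 47.9 RPKM in WT and 79.3, 253 and 62.7 RPKM in DKI. Over the 18 libraries, Pearson's r between log2(RPKM + 1) and the log2 V gene sum was 0.996 for *Igkc*, 0.983 for *Igha*, 0.977 for *Ighg2b* and *Jchain* and 0.976 for *Ighg1*. These correlations span the gap between day 0 and culture. With the 6 group means removed they were 0.984, 0.889, 0.867, 0.834 and 0.844, and lower for *Iglc2* (0.552), *Ighg3* (0.525), *Iglc3* (0.318) and *Ighm* (0.219).

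Among the heavy constant regions, *Igha*, the constant region of mucosal IgA, held 31.5 to 47.2% of the summed heavy constant RPKM on day 0. *Ighg1*, *Ighg2b*, *Ighg2c* and *Ighg3*, the IgG classes, each held a smaller share, with *Ighg1* at 4.26, 15.2 and 5.03% in WT and 11.4, 25.4 and 14.4% in DKI. *Ighd* (IgD) and *Ighe* (IgE) reached at most 0.0467% and 0.0710% on day 0, and *Ighd* reached 0.91% in the cultures. *Ighm*, the IgM constant region, did not follow the V genes on day 0. It was at 123, 215 and 268 RPKM in WT and 171, 239 and 268 RPKM in DKI, so that the library with the highest V gene sum was not the highest in *Ighm*. Its share of the heavy constant RPKM was 9.28 to 44.8% on day 0, above that of *Igha* in replicate 3 of both genotypes, and 15.7 to 91.1% in the cultures. The lambda light chain was a minor part, with *Igkc* at 86.0 to 93.1% of the light constant RPKM on day 0.

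Between genotypes, none of the constant regions was called on day 0, where limma gave log2 fold changes of 1.17 (SE 0.75) for *Igkc*, 0.90 (SE 0.68) for *Igha*, 2.09 (SE 1.12) for *Ighg1*, 2.31 (SE 0.85) for *Ighg2c* and 0.21 (SE 0.33) for *Ighm*. On day 3, *Ighg2c* was higher in DKI, at 0.366, 1.06 and 0.463 RPKM in WT and 2.45, 4.04 and 2.65 RPKM in DKI (log2 fold change 1.32, SE 0.23, adjusted p = 0.0292 from limma). This call was lost without WT replicate 1 or 3 or without DKI replicate 2 or 3 (adjusted p-values of 0.0647 to 0.107 from limma). It was also lost in the fit of all 18 libraries (adjusted p = 0.182 from limma) and without a filter on low values (0.056). *Igkc* was at 12.8, 19.3 and 6.41 RPKM in WT and 108, 34.9 and 19.8 RPKM in DKI on that day and was not called (adjusted p = 0.164 from limma).

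The companion genes were not chosen by the rule on V genes, and their change over time was tested. The constant regions and J segments share transcripts with the V genes. Their fall therefore repeats that of the V genes and is not separate evidence for it. Of the 68 companion genes fitted, 42 fell in WT from day 0 to day 3, against 21.4% of all 11098 genes, and 40 fell in DKI, against 19.2%. All 6 heavy and all 4 light constant regions fitted, and all 8 J segments fitted, fell in both genotypes. The log2 change in WT and in DKI was −5.72 and −5.12 for *Igkc*, −5.27 and −5.30 for *Igha*, −5.02 and −4.79 for *Ighg1*, −4.87 and −4.03 for *Ighm*, and −4.96 and −5.13 for *Jchain* (adjusted p-values from limma between 0.000208 and 0.00735). From day 3 to day 6, limma called 0 genes in either genotype, with 812 genes in WT and 133 in DKI at an unadjusted p under 0.05.

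Plasma cell, B cell and precursor B cell markers differed in level. Of the 14 plasma cell markers, 9 entered the fit, and from day 0 to day 3 limma called *Jchain*, *Mzb1* and *Prdm1* lower in both genotypes, *Fkbp11* higher in both and *Irf4* higher in WT. *Mzb1*, which serves antibody assembly, was at 0.683, 3.39 and 1.76 RPKM in WT and 1.85, 6.88 and 2.09 RPKM in DKI on day 0, and at most 0.309 RPKM on day 3. The low plasma cell markers *Derl3* and *Tnfrsf17* overlapped between these days. *Derl3* was at 0.214 to 1.11 RPKM on day 0 and 0.0240 to 0.934 RPKM on day 3. *Tnfrsf17* was at 0.190 to 1.26 RPKM and 0.0327 to 0.593 RPKM. *Sdc1* (CD138) did not follow the V genes, at 0.603 to 2.69 RPKM on day 0 and 7.53 to 24.1 RPKM on day 6. *Xbp1*, *Irf4*, *Prdm1* and *Slamf7* are also used by myeloid cells, and *Xbp1* stood at 184 to 239 RPKM on day 0 and 112 to 402 RPKM in culture. The 14 mature B cell markers summed to 8.76 to 17.5 RPKM on day 0 and 20.1 to 61.6 RPKM in culture. On day 0, *Cd79b* was the highest of them in 4 libraries and *Blnk*, which myeloid cells use as well, in replicate 1 of both genotypes. The defining B cell markers *Ms4a1* (at most 0.241 RPKM) and *Pax5* (0.0852 RPKM) were near 0 in all 18 libraries, as were the precursor genes *Vpreb1* (0.226 RPKM), *Igll1* (0.0985 RPKM) and *Rag1* (0.0602 RPKM). Other genes of these lists were higher. *Dntt*, which adds bases at the junctions, reached 0.999 RPKM and *Vpreb3* 0.577 RPKM, both on day 0. *Cd79a* and *Cd79b*, the antigen receptor subunits, were at 0.463 to 2.51 RPKM and at 2.34 to 13.3 RPKM on day 0, and *Cd22* reached 29.6 RPKM in DKI day 6 replicate 1.

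Between genotypes, 67 companion genes entered the fits of day 3 and of day 6. On day 3, 2 were called higher in DKI and 2 lower, against 2.57% and 3.52% of all genes, and on day 6, 0 were called higher and 3 lower, against 2.31% and 4.14%. On day 3 the second gene called higher, beside *Ighg2c*, was *Cd22*, an inhibitory receptor of B cells, at 1.31, 1.24 and 1.33 RPKM in WT and 21.5, 5.28 and 7.02 RPKM in DKI. The 2 called lower were *Fcrla*, of the mature B cell list, at 7.16, 3.16 and 9.63 RPKM in WT and 1.03, 0.294 and 0.502 RPKM in DKI, and *Pacsin1*, of the plasmacytoid dendritic cell list, at 8.96, 7.06 and 8.17 RPKM in WT and 0.310, 0.173 and 0.752 RPKM in DKI. *Cd22*, *Fcrla* and *Pacsin1* were at most 0.778 RPKM on day 0, when the V genes were highest. On day 6, *Pacsin1* was again lower in DKI, as were the plasma cell list's *Irf4* (107, 114 and 178 RPKM in WT and 11.2, 34.0 and 19.9 RPKM in DKI) and *Xbp1* (374, 260 and 368 RPKM and 136, 112 and 171 RPKM), transcription factors that myeloid cells also use. Of these calls, that of *Pacsin1* on day 3 held with each library left out, and each of the others was lost without at least 1 library. With the replicate block, *Cd22* on day 3 (adjusted p = 0.0644 from limma) and *Pacsin1* on day 6 (0.0540) were no longer called. Both calls were also lost with median centring, quantile normalization or no filter on low values (adjusted p-values of 0.0575 to 0.0889 from limma). Without that filter, *Fcrla* on day 3 and *Irf4* and *Xbp1* on day 6 were lost too (0.0526 to 0.0635 from limma). Median centring also removed *Xbp1* (0.0712).

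Among markers of other bone marrow cells, those of stroma and bone and several of eosinophils were highest in replicate 2 of both genotypes on day 0, as was the V gene sum. The stroma and bone list (*Col1a1*, *Col1a2*, *Sparc*, *Bglap*) summed to 25.3 to 62.6 RPKM in WT and 43.6 to 153 RPKM in DKI on day 0, and to 0.0892 to 33.9 RPKM in the cultures. *Col1a1* was at 16, 31.1 and 13.5 RPKM in WT and 21.8, 77.4 and 25.1 RPKM in DKI on day 0, and was highest in the library with the highest V gene sum. In culture, it stood at 4.49 and 17.6 RPKM in DKI replicate 1 of days 3 and 6 and at no more than 0.261 RPKM in the other 10 cultures. The neutrophil precursor gene *Elane* was at 20.4, 29.8 and 34.7 RPKM in WT replicate 2 and DKI replicates 1 and 2 of day 3 and at most 0.709 RPKM in the other libraries of that day. The first 3 are also those with the highest V gene sums within their genotypes. On day 0, *Elane* was at 216 to 397 RPKM in WT and 213 to 368 RPKM in DKI and did not follow the sum in this way. The eosinophil list summed to 216 to 597 RPKM in WT and 150 to 431 RPKM in DKI on day 0, with a median log2 fold change of −0.70 and 0 genes called. *Prg2*, an eosinophil granule protein, was at 169, 433 and 267 RPKM in WT and 120, 317 and 123 RPKM in DKI. With the 6 group means removed, the correlation with the V gene sum was 0.714 for *Ear6*, 0.692 for *Prg3*, 0.687 for *Ear1* and 0.632 for *Prg2*, and 0.779 for *Col1a1*. The plasmacytoid dendritic cell gene *Siglech* reached at most 0.532 RPKM. Of the same list, *Ly6d* reached 2.63 RPKM on day 0, and its correlation with the V gene sum was 0.552 with the group means removed. That list summed to 56.2 to 98.2 RPKM on day 0, with *Bst2* as its highest gene. *Cd3e* of T cells reached at most 0.257 RPKM. The T and NK cell list summed to 0.927 to 1.71 RPKM on day 0 and to as much as 60.3 RPKM in culture, where *Cd4* was its highest gene and *Cd3g* and *Cd2* reached 8.79 and 3.18 RPKM in DKI day 6 replicate 2. The part of these other cells in the V gene differences was not tested.

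**Figure D5:**
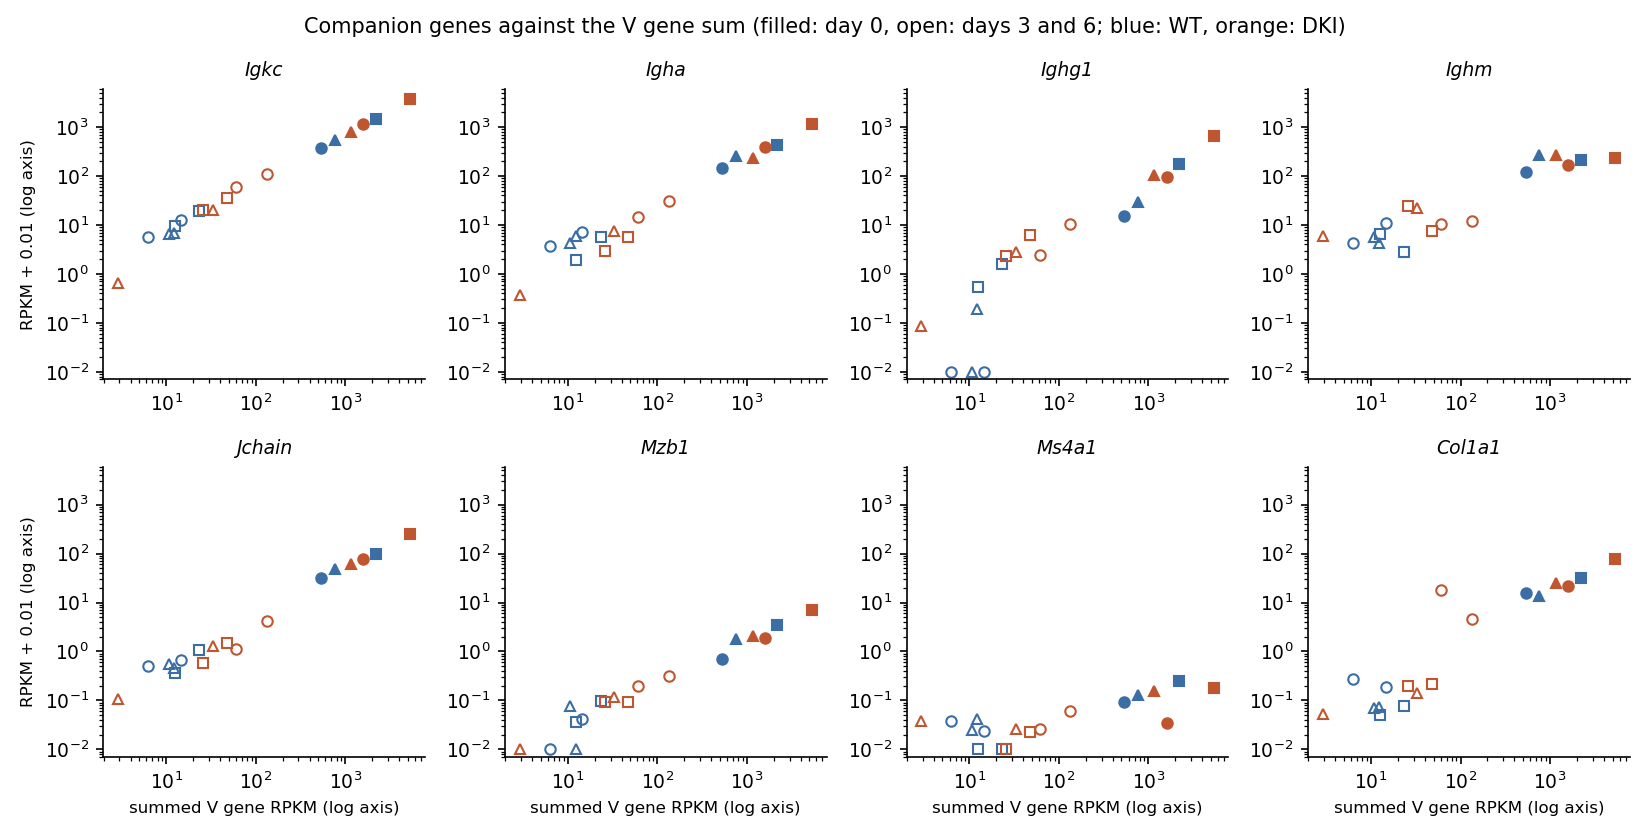
The RPKM of 8 companion genes (plus 0.01, so that 0 can be drawn) is plotted against the summed V gene RPKM of the same library, both on log axes, with filled symbols for day 0, open symbols for the cultures and 1 shape per replicate number. *Igkc*, *Igha* and *Jchain* run along the sum, *Ighm* lies between 123 and 268 RPKM in the day 0 libraries, *Ms4a1* stays at or below 0.241 RPKM, and *Col1a1* is high in 2 of the 12 cultures.

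The genes outside the immunoglobulin loci whose levels were most like the V gene sum over the 18 libraries were *Jchain* (r = 0.977), *Fam72a* (0.964), *Slc15a4* (0.961), *Mefv* (0.956), *Ptgs2* (0.952), *Med7*, *Ripor2*, *Pold3* and *Dusp2* (each 0.950) and *Pou2f2* (0.949). All 10 were higher in every day 0 library than in every culture, so that these values span the gap between them. With the 6 group means removed, the highest values were those of *Dnajc14* (0.911), *Anapc10* (0.892), *Arpc3* (0.881), *Fam72a* (0.878), *Rnf40* (0.876), *Atg4b* (0.857), *Jchain* (0.834), *Zfp526* (0.830), *Lin37* (0.829) and *Efcab14* (0.820). *Jchain* and *Fam72a* were in both lists. These are descriptions over 18 libraries that share groups and replicate numbers.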

How the data were processed

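RNA of WT and DKI cells was sequenced in 18 libraries, 3 in each of 6 groups. The authors deposited RPKM values, obtained from single-end reads that were mapped to mm10 by Subread and assigned to RefSeq genes by featureCounts (the tools are named in the submitters' processing notes, and versions, strand and the handling of multiply mapped reads are not given in the sources used here). All 18 columns were used. Gene IDs were matched to RefSeq (20082 found, 216 not). V gene lengths came from RefSeq and GENCODE M21. Of the values up to 20 reads, 474 of 474 on single-exon and 539 of 574 on other V genes were whole within 0.05 reads, with depths of 29.5 to 43.2 M reads. Counts of other genes were not recovered, and no count test was run.

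Genes above 0.5 RPKM on average were fitted with limma 3.58.1 on log2(RPKM + 1) in R 4.3.3, on the libraries compared, without a block. Genes at the same value in all libraries of a fit were dropped. Calls required a fold change above 1.5 with an adjusted p (Benjamini-Hochberg) under 0.05. Fold changes on this scale understate changes of low genes. Steps were tested on simulated data. Pairing was checked by correlating, over all fitted genes, the deviations of same-numbered WT and DKI libraries (r = 0.869, 0.687 and 0.841 on day 0, 0.155, 0.365 and 0.247 on day 3, and 0.330, 0.402 and 0.408 on day 6), so the numbers of the labels pair WT and DKI libraries of the same day. Over the members alone these correlations were −0.157 to 0.191. Between day 0 and day 3, same-numbered libraries gave −0.203 to 0.00115 in WT and −0.0129 to 0.181 in DKI over all fitted genes. The numbers were thus not found to pair these days.

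Members, lists and tests were chosen with earlier results of these data known. Genes named were the 12 highest members, the leading genes of each library, members called, constant regions, members at the limit, the genes most like the sum and leading markers. Other genes were named after their values were seen. The result of 1 listed marker gene is not reported here. Alternatives were another pseudocount, other filters, scalings, the block, all 18 libraries and leaving out each library.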

Additional observations from a re-analysis of the deposited data

Results flagged for a closer look

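The values below were singled out because limma called the genotype by time difference itself. Each is the DKI change minus the WT change on the log2 scale. For day 3 it was −1.99 for *Ighv1-36*, −1.35 for *Igkv6-32* and −1.78 for *Ighv1-4*. For day 6 it was −2.22 for *Ighv1-81*, −1.87 for *Ighv1-36*, −1.87 for *Ighv1-4* and −1.32 for *Igkv6-13*. All 5 genes were higher in each DKI library than in each WT library of day 0, a difference that was not called. None exceeded 0.340 RPKM in the cultures compared, so that these values mostly repeat the day 0 difference. *Ighv1-36*, *Ighv1-4* and *Igkv6-13* passed the limit of 0.5 RPKM only through DKI (means of 0.112, 0.378 and 0.306 RPKM over the 9 WT libraries), so nothing is read from these calls. The share of members called lower was near that of all genes in this fit, whereas the fit of all 18 libraries called 7 members in each comparison, beside 153 and 245 of 11098 genes. No member was called for day 3 without WT day 3 replicate 1, or for day 6 without WT day 6 replicate 3. Among the marker genes, which the choice of V genes did not use, limma called *Pacsin1* (−2.69) and *Fcrla* (−2.33) for day 3 and *Irf4* (−2.94), *Xbp1* (−1.35) and *Pacsin1* (−2.31) for day 6. These genes were low or level on day 0 and lower in DKI than in WT in culture, and each of these calls but that of *Pacsin1* for day 3 was lost without at least 1 library. No group held more than 3 libraries, so that no single library was tested for standing apart.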

How the results depend on the processing

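The members called between genotypes on day 0 were 0 with each alternative run except the fit of all 18 libraries, which called 5 genes, all of them members. With all 18 libraries, the genes called numbered 1372 on day 3 and 1583 on day 6, and the members called 1 on day 3 and 7 in each of the genotype by time comparisons, beside 153 and 245 of 11098 genes called lower. Without a filter on low values, day 3 gave 358 genes called and day 6 gave 187. With the study's limit of 2 RPKM, 0 members were called on day 3, where 6 members were left in the fit and the 2 genes called above were not among them. A pseudocount of 0.1 called 1 member in each genotype by time comparison, beside 163 and 162 of 11098 genes called lower. Median centring called 2 members for day 6, beside 167 genes. The replicate block removed the calls of *Igkv6-13*, of *Cd22* on day 3 and of *Pacsin1* on day 6 and changed no other call of a gene named between genotypes. Its member counts were 4 and 3 for the genotype by time comparisons, beside 247 and 255 of 11098 genes called lower. Leaving out 1 library gave 193 to 670 genes called on day 3, 105 to 954 on day 6, 148 to 358 for genotype by time to day 3 and 121 to 693 to day 6. It gave 0 to 5 members on day 3, 0 to 6 for genotype by time to day 3 and 0 to 7 to day 6. The log2 fold change of *Ighm* on day 0 ranged from −0.12 (without WT replicate 1) to 0.45 when a library was left out. The cause of these shifts was not tested. In the cultures of lowest sum, a few reads set the level of a V gene.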
